A study of Mus musculus with 2 samples.

Results

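The replication-dependent histone cluster genes of the mouse encode the linker histone H1 and the core histones H2A, H2B, H3 and H4. They were taken as every gene whose symbol begins with Hist1h, Hist2h, Hist3h or Hist4h in the deposited transcript tables, which gave 70 genes of 55536 annotated genes. Of these, 67 are annotated as protein-coding and 3 as pseudogenes (Hist1h2al, Hist3h2bb-ps and Hist1h2aj). By class, 6 encode H1, 20 H2A, 19 H2B, 12 H3 and 13 H4. The Hist1 cluster on chromosome 13 holds 56 of them, Hist2 on chromosome 3 holds 10, Hist3 on chromosome 11 holds 3 and Hist4 on chromosome 6 holds 1. Total RNA was sequenced from hippocampus of 2 adult female B6CASTF1/J mice, hybrids whose parents are of the strains C57BL/6J and CAST/EiJ, at 8 to 10 months of age. Replicate 1 came from animal 1 and replicate 2 from animal 5, each from 300 ng of RNA, and both carry the same donor identifier in the labels. They were read as separate animals from their animal numbers. The mice carried no treatment or engineered allele in the labels, so they form 1 group. The tissue label speaks of a layer of the hippocampus, without saying which.

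In dividing cells these genes are transcribed mainly in S phase, when new DNA has to be packed into nucleosomes made of the 4 core histones and closed by the linker histone H1. Their mRNAs generally carry no poly(A) tail. They end shortly after a conserved stem-loop, which is bound by the stem-loop binding protein Slbp, and libraries selected for poly(A) tails largely miss them. Most hippocampal neurons and glia no longer divide and take replacement histones mostly from replication-independent variant genes such as H3f3a and H3f3b. A total RNA library, as here, records both kinds of transcript.

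The stem-loop is shown first because it is what sets these mRNAs apart from other messages. It was searched as 16 bases on the coding strand of the GENCODE M21 transcripts (build mm10), within 150 bases after the stop codon. The pattern was GG, any 2 bases and CT, then a loop of 4 bases with T at the first and the third place, then AG, any 2 bases and CC. It was present in 46 of the 70 genes, in 8 forms, and in 6 of 21607 other protein-coding genes (0.0278%), among them the H2A variant gene H2afx. The lines below give the 8 forms with the number of genes of each, in capitals the stem arms and in lower case the loop.
Hist2h2aa2 and its like, 26 genes: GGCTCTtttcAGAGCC
Hist1h4h and its like, 7 genes: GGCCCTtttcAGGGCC
Hist1h3e and its like, 6 genes: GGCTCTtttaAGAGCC
Hist1h4i and its like, 2 genes: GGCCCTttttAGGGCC
Hist1h4b and its like, 2 genes: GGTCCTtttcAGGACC
Hist1h4a, 1 gene: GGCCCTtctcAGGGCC
Hist1h3g, 1 gene: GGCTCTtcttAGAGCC
Hist2h2ac, 1 gene: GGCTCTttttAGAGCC
All 34 stem-loops of H1, H2A, H2B and H3 genes began with the arm GGCTCT. None of the 12 found in H4 genes did, of which 10 had GGCCCT and 2 had GGTCCT. The stem-loop of Hist1h4h lies at chr13:23531458-23531473 on the plus strand, and that of Hist2h2aa2 at chr3:96239784-96239799 on the minus strand. The 7 H4 genes with the form of Hist1h4h summed to 467 TPM in replicate 1 and 366 TPM in replicate 2. The 26 genes with the form of Hist2h2aa2 summed to 313 and 331 TPM. The loops lay 21 to 58 bases after the stop codon, with a median of 31. Of the 24 genes without a match, 15 have an annotation that ends at the stop codon or within 2 bases of it. A further 3 are the pseudogenes with no annotated stop codon, and 6 have a longer tail in which the pattern was not found. That tail is only 37 bases in Hist2h3b and 48 in Hist1h1a. In Hist1h2bq and Hist1h2br it belongs to spliced isoforms only. Their single-exon isoforms, which held most of their counts in the gene table, end at the stop codon. The annotation ended within 60 bases after the stem-loop in 22 genes, which summed to 586 TPM in replicate 1 and 476 TPM in replicate 2. It ran farther past the stem-loop in 24 genes, with 360 and 356 TPM. TPM (a transcript level corrected for length and sequencing depth) divides by the annotated length, so where an annotation ends bears on each gene's level.

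Coding regions are near-identical between many members of the core histone classes, which limits how far those genes can be measured singly, while the H1 genes share less. The 13 H4 genes encode 1 and the same protein of 103 residues, and the 12 H3 genes encode 2 proteins that differ at 1 residue. The 18 coding H2A genes encode 9 proteins, the 18 coding H2B genes 11, and the 6 H1 genes 6. At the DNA level, H4 coding regions were 85.3% to 100% identical, with a median of 93.9%. The first 60 coding bases of 4 H4 genes are given below, with capitals at bases that differ from Hist1h4h.
Hist1h4h: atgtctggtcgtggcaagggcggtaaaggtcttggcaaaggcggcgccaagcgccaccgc
Hist1h4k: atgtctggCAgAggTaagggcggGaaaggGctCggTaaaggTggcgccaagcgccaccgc
Hist1h4m: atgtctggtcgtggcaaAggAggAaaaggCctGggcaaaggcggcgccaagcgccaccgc
Hist1h4n: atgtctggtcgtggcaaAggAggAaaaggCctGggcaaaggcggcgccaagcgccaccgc
Hist1h4k differed from Hist1h4h at 14 of 312 coding bases and Hist1h4m differed at 10. Hist1h4m and Hist1h4n did not differ at any of the 312, so a read with this reference sequence cannot be assigned to either. Identity and the windows below were taken from the reference transcripts alone. The CAST/EiJ sequence that the hybrids also carry was not examined. Each transcript was cut into all windows of 101 bases, the fragment length implied by the effective lengths in the gene table, and each window was looked for in every other gene. The median member had 66.7% of its windows in no other gene. The share was below 50% in 26 members and 0% in Hist2h2aa2 and Hist2h3c1. The 6 H1 genes had 75.5% or more of their windows to themselves.

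Histone cluster transcripts were present in adult hippocampus at 1251 ± 108 TPM in sum (mean ± SD, n = 2). The sum was 1327 TPM in replicate 1 and 1174 TPM in replicate 2. A second quantification of the same libraries gave 1219 ± 95.9 TPM. In expected counts, which split shared reads between genes, the members held 15132 in replicate 1 against 11498 in replicate 2, or 0.0443% and 0.0405% of the 34147402 and 28356913 annotated counts. At a TPM of at least 1 in both libraries, 57 of 70 members were detected (81.4%), against 27.5% of all annotated genes and 59.1% of protein-coding genes. Over the detected members the median level was 10.4 TPM, beside 17.6 TPM over detected protein-coding genes. The level was uneven between genes, since 8 members held 50% of the summed TPM and 22 held 80% of it.

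**Figure D1:**
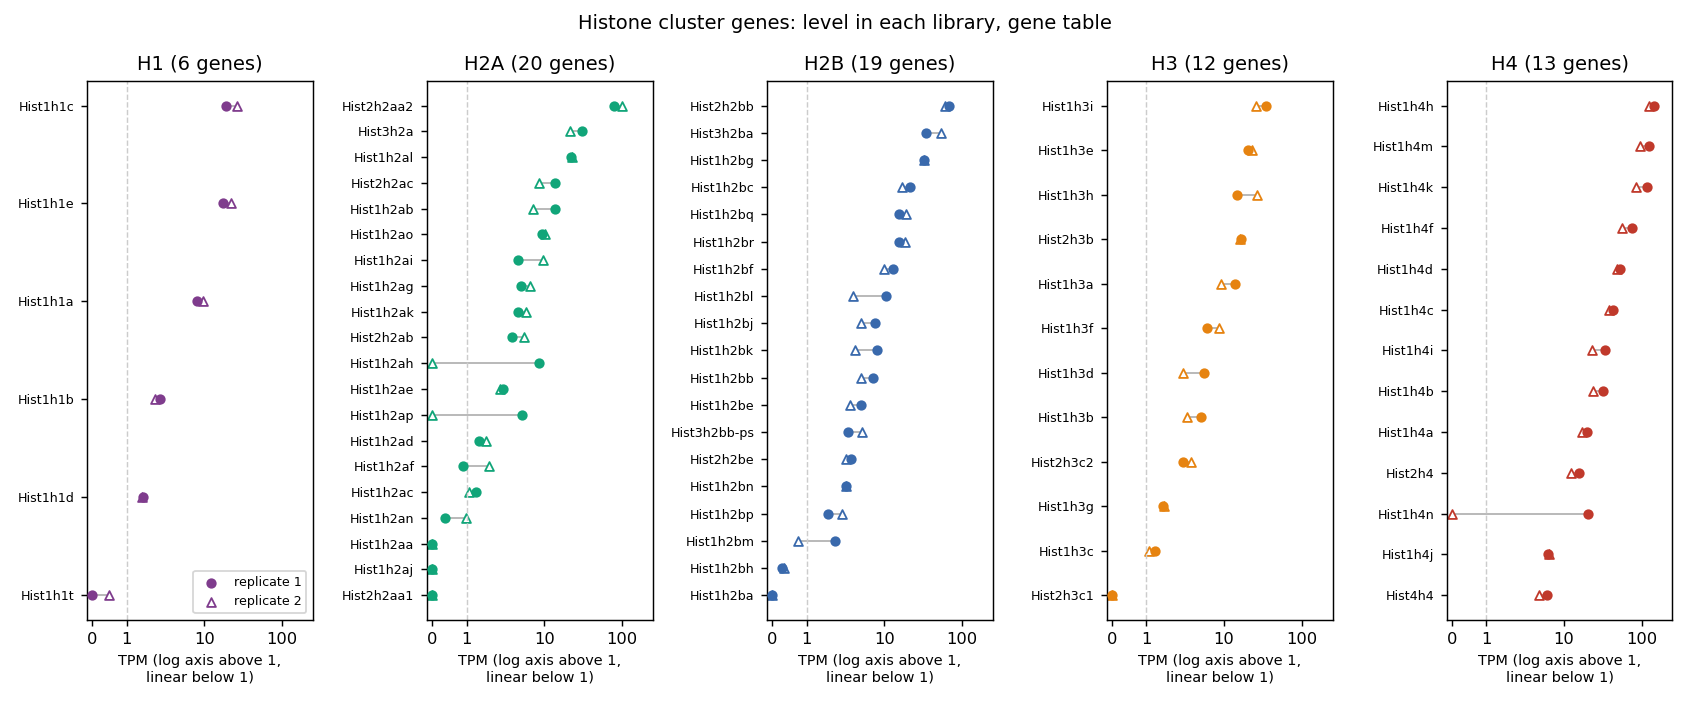
Level of each of the 70 histone cluster genes in TPM (horizontal axis, logarithmic above 1 and linear below), one row per gene in 5 panels by class, with filled circles for replicate 1 and open triangles for replicate 2. The dashed line marks 1 TPM. In both libraries 12 of 13 H4 genes lie above 1 TPM, the exception being Hist1h4n, and every class holds at least 1 gene at 0 in a library.

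**Figure D2:**
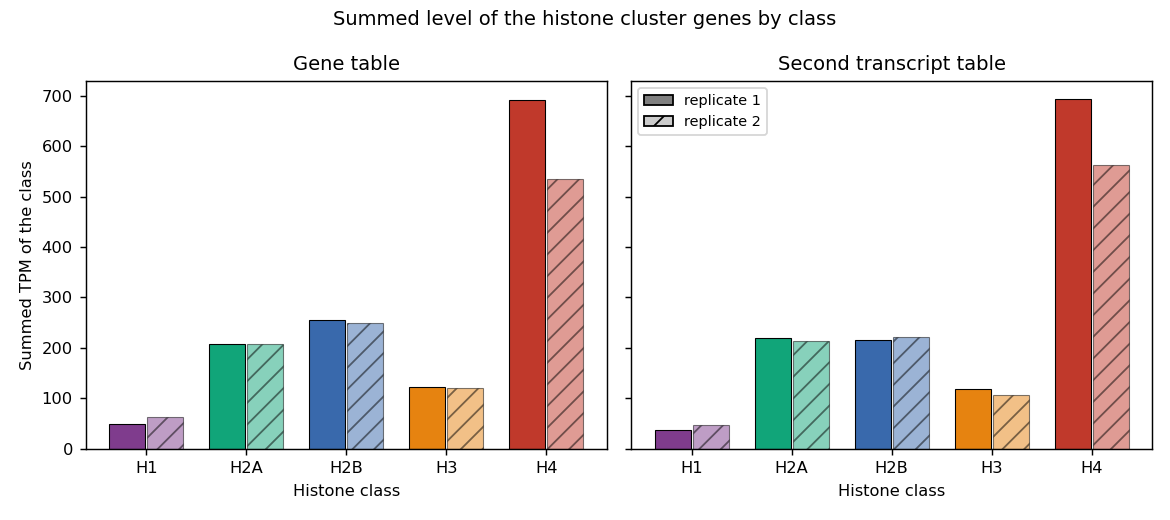
Summed TPM of each histone class (bars from 0) in replicate 1 (solid) and replicate 2 (hatched), in the gene table at left and the second transcript table at right. H4 stands highest in both tables, at 692 and 534 TPM in the gene table, and H1 lowest.

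H4, the core histone that pairs with H3, made up 49.0% of the summed level. Its 13 genes summed to 692 TPM in replicate 1 and 534 TPM in replicate 2, or 613 ± 112 TPM. Hist1h4h (chromosome 13, 23531050 to 23531519, plus strand, 1 exon) was the highest of all members, with 146 TPM in replicate 1 and 125 TPM in replicate 2. Hist1h4m had 124 and 94.1 TPM, Hist1h4k 117 and 85.5 TPM, and Hist1h4f 74.9 and 55.9 TPM, in replicates 1 and 2 in that order. Hist1h4h was above Hist1h4m and Hist1h4k in each library of both tables, although in the gene table the gaps in mean were no wider than the summed SDs (15.2, 21.1 and 22.4 TPM). Hist1h4m and Hist1h4k changed places in the second table, with means of 123 and 144 TPM. Hist1h4d had 53.2 TPM in replicate 1 and 48.0 TPM in replicate 2, and Hist1h4c had 42.85 and 38.19 TPM. The other H4 genes had lower means, the lowest in Hist4h4 (chromosome 6, 136801553 to 136804415) with 6.01 TPM in replicate 1 and 4.71 TPM in replicate 2. Hist1h4n was listed with 20.3 TPM in replicate 1 and 0 in replicate 2. All 13 encode the same protein, so their sum is the level of all mRNA for 1 protein.

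H2B and H2A, which form the dimers on either side of the nucleosome, followed. The 19 H2B genes summed to 252 ± 4.45 TPM and the 20 H2A genes to 208 ± 0.877 TPM in the gene table. In the second table the sums were 219 ± 4.67 and 217 ± 4.09 TPM, so the order of these classes was not separable there. Hist2h2bb (chromosome 3, 96269752 to 96270132) was the highest H2B gene, with 69.3 TPM in replicate 1 and 60.3 TPM in replicate 2. Its annotated span overlaps the noncoding RNA gene Gm42743 on the same strand and Gm20628 on the other. Hist3h2ba, the highest gene of the Hist3 cluster, had 34.6 TPM in replicate 1 and 54.1 TPM in replicate 2, and so was the higher in replicate 2. Hist1h2bg had 32.8 and 32.7 TPM, nearly the same level in both.

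Hist2h2aa2 (chromosome 3, 96239749 to 96240276, minus strand) was the highest H2A gene, with 79.95 TPM in replicate 1 and 100.4 TPM in replicate 2. Its neighbour and copy Hist2h2aa1 was listed at 0 in both libraries of the gene table. All 428 windows of Hist2h2aa2 occur in Hist2h2aa1 and also in the processed transcript Gm20634, which overlaps Hist2h2aa1 on the same strand and had 357 counts in replicate 1 and 201 in replicate 2. The deposited posterior SD of Hist2h2aa2 was nevertheless small, 16.01 counts in replicate 1 and 17.77 in replicate 2. Hist3h2a, which shares 609 windows with the same-strand gene Trim17, had the highest mean count of any member, 1341 in replicate 1 and 784 in replicate 2, although Hist1h4d was higher in replicate 2, with 877. Per length its level was lower, at 31.1 and 21.8 TPM.

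The 12 H3 genes summed to 122 ± 1.26 TPM, and Hist1h3i (chromosome 13, 21782960 to 21783370) had the highest mean in the gene table, with 35.2 TPM in replicate 1 and 25.5 TPM in replicate 2. In the second table Hist1h3b was highest, with a mean of 21.8 TPM beside 19.1 TPM for Hist1h3i. Hist1h3h, which encodes the same protein, had 14.7 TPM in replicate 1 and 26.4 TPM in replicate 2, and so was above Hist1h3i in replicate 2. Together Hist1h3h and Hist1h3i had 49.9 and 51.9 TPM, with an SD of 1.44 TPM, against 8.27 TPM for Hist1h3h and 6.83 TPM for Hist1h3i. In the second table they together had only 31.3 TPM in replicate 1 and 28.2 TPM in replicate 2, so their sum also depended on the table. Only 8.04% and 31.8% of their windows are their own. The replication-independent H3f3a and H3f3b, which encode variant H3.3, summed to 273 TPM in replicate 1 and 272 TPM in replicate 2, so the cluster genes held 31.1% and 30.9% of the TPM of these H3 genes. The 6 H1 genes had the lowest sum, 48.7 TPM in replicate 1 and 62.8 TPM in replicate 2. Hist1h1c (chromosome 13, 23738808 to 23740367) had 18.95 TPM in replicate 1 and 26.65 TPM in replicate 2, and Hist1h1e 17.5 and 22.1 TPM. Hist1h1t, the H1 gene known from testis, had 0 counts in replicate 1 and 7 in replicate 2. H1f0 and H1fx, variant H1 genes outside the clusters, summed to 58.6 TPM in replicate 1 and 62.9 TPM in replicate 2.

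Members with no counts in the gene table were 5 of 70, namely Hist1h2aa, Hist1h2aj, Hist1h2ba, Hist2h2aa1 and Hist2h3c1. Hist1h2aa and Hist1h2ba, the H2A and H2B pair known from the testis, have 100% and 72.9% of their windows to themselves, and the second table gave the pair at most 1 count in a library. For Hist1h2aa, which shares no window, a count of 0 allows up to 3 counts, or 0.0879 CPM in replicate 1 and 0.106 CPM in replicate 2. That limit does not hold for members that share reads. Hist2h2aa1, listed at 0, had posterior means of 12.6 counts in replicate 1 and 17.5 in replicate 2. Hist2h3c1 has no window of its own, sharing 1725 with Gm20634. It was at 0 in the second table as well, but had posterior means of 8.41 and 6.56 counts. Hist1h2ah, Hist1h2ap and Hist1h4n were listed at 0 in replicate 2 only, and the 3 are among those with uncertain read assignment described below.

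Along the chromosomes, Hist1 summed to 962 ± 119 TPM, Hist2 to 208 ± 3.01 TPM, Hist3 to 75.1 ± 8.46 TPM and Hist4 to 5.36 ± 0.919 TPM. Hist1 falls into a block of 24 genes (chromosome 13, 21715763 to 22043676) and a block of 31 genes (23531050 to 23934851). The first summed to 457 TPM in replicate 1 and 354 TPM in replicate 2, and the second to 568 and 501 TPM. The pseudogene Hist1h2al lies apart, at 51202727 to 51203065, with 21.8 and 23.0 TPM. In 14 pairs an H2A and an H2B gene face away from each other with starts 173 to 306 bases apart, and so share the sequence between them. Hist1h2bc had 21.3 and 17.0 TPM where its partner Hist1h2ac had 1.31 and 1.07 TPM, in replicates 1 and 2 in that order. Hist1h2bg, at 32.8 and 32.7 TPM, faced Hist1h2ae at 2.93 and 2.67 TPM. These pairs were picked after their values were seen. The H2B gene was the higher in 10 pairs and the H2A gene in 3, but the second table gave 8 and 6, so no order by class held across both tables.

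RefSeq promoters (build GRCm38.p6, 250 bases before to 50 after the start) were matched for 62 of 70 genes and searched for CCAAT and TATAA on both strands. CCAAT occurred in 50 of 50 promoters of H1, H2A, H2B and H3 genes and in 3 of 12 of H4 genes, beside 37.4% of 32851 RefSeq promoters. TATAA occurred in 38 of 50 and in 11 of 12, beside 24.9%. Facing genes share much of their window, so these promoters are not all separate sequences. The windows of the highest member, Hist1h4h (chr13:23530794-23531093, plus strand), and of Hist3h2ba (chr11:58948661-58948960, plus strand) show the contrast, with capitals at either motif on either strand.
Hist1h4h: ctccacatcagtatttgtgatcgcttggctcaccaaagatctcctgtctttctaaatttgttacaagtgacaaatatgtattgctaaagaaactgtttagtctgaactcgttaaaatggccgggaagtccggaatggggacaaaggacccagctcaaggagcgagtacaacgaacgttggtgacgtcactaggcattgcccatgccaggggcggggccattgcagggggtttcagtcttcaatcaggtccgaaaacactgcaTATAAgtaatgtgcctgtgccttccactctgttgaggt
Hist3h2ba: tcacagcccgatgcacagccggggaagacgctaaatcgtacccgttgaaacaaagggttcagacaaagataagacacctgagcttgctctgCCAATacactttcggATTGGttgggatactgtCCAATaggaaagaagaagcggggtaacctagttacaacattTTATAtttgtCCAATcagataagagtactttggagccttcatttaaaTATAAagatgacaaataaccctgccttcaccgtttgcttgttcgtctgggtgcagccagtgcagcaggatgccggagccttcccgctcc
Hist1h4h holds no CCAAT in this window and Hist3h2ba holds 4. Within H4, the 3 genes with CCAAT (Hist1h4d, Hist1h4c and Hist1h4a) had mean levels of 50.6, 40.5 and 18.4 TPM, inside the range of 5.36 to 135 TPM of those without.

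Read assignment was uncertain for 9 of 61 members with a mean count of at least 10 (14.8%), against 1.49% of the 18599 genes tested. Assignment was called uncertain where the deposited posterior SD of the count, the spread over ways of assigning shared reads, exceeded 2 times the square root of the count. The 9 members were Hist1h4m, Hist1h4n, Hist1h2bq, Hist1h2br, Hist1h2ao, Hist1h2ap, Hist1h2ag, Hist1h2ah and Hist1h2ai. All 9 were among the 21 members with under 50% of windows of their own, and none of the 40 others was called. The widest spread relative to the count was that of Hist1h4n, an H4 gene with 141 counts in replicate 1 and 0 in replicate 2. Its posterior SD was 77.8 counts in replicate 1, about a posterior mean of 170 counts, and in replicate 2 the posterior mean was 24.5 counts with an SD of 23.2. Its copy Hist1h4m had 789 counts in replicate 1 and 501 in replicate 2, with posterior SDs of 78.9 and 24.55 counts.

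Hist1h2bq and Hist1h2br, which share 1910 windows, had 95.2 and 96.6 counts in replicate 1, against 95.8 and 95.7 in replicate 2. Their posterior SDs were 45.1 to 52.2 counts. The single-exon isoforms of the pair were listed with identical values, 91.6 counts each in replicate 1 and 92.6 each in replicate 2. Hist1h2ao had 74.5 counts in replicate 1 and 69.1 in replicate 2 while its copy Hist1h2ap had 41.5 and 0. Hist1h2ag had 40.5 counts in replicate 1 and 44.9 in replicate 2, and Hist1h2ai 28.7 and 49.0. Hist1h2ah, whose protein is 128 residues long against 130 in most H2A genes, had 54.2 counts in replicate 1 and 0 in replicate 2.

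**Figure D3:**
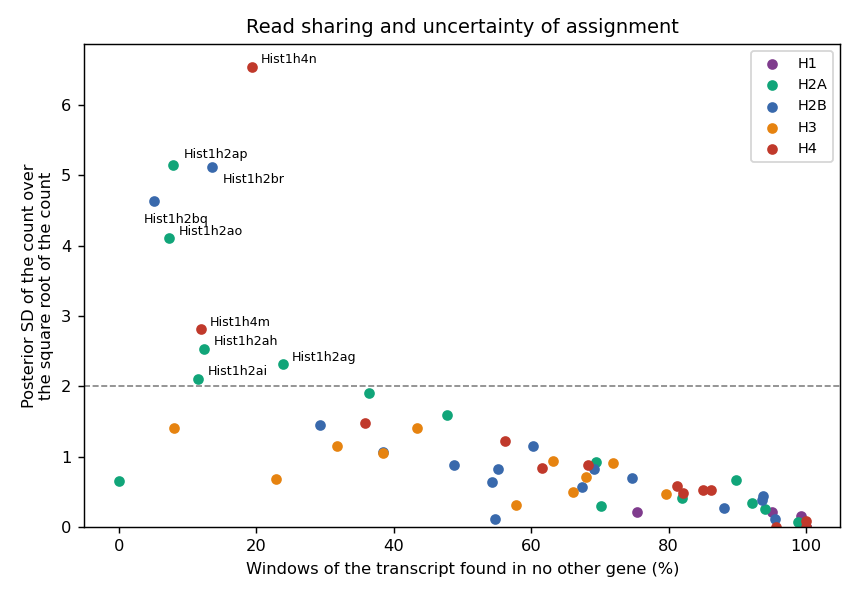
Share of each member's 101-base windows that occur in no other gene (horizontal axis, percent) against the posterior SD of its count divided by the square root of the count (vertical axis), for the 61 members with a mean count of at least 10, coloured by class. The dashed line marks 2, and the 9 labelled members above it all have under 50% of windows of their own.

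The 2 deposited quantifications, one with the column layout of RSEM and one with that of kallisto, gave these genes different counts. All members together had 15132 counts in replicate 1 and 11498 in replicate 2 of the gene table, but 12528 and 9633 in the second. Over all annotated genes the second table held more counts, 36354580 and 30279344 against 34147402 and 28356913. Of 47 members with a mean count of at least 50 in either table, 12 differed at least 2-fold in mean TPM (25.5%), against 6.17% of 15652 genes. Hist2h2aa1 had 0 and 0 counts in the gene table but 325 in replicate 1 and 408 in replicate 2 of the second table. With Hist2h2aa2 it summed to 721 counts in replicate 1 and 757 in replicate 2 of the gene table, and to 738 and 784 in the second. The pair thus kept nearly the same sum while the tables divided it differently.

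Unlike Hist2h2aa1, the genes Hist1h2al and Hist1h2ao were listed at 0 in both libraries of the second table. In the gene table they had 110 and 74.5 counts in replicate 1 and 96.8 and 69.1 counts in replicate 2. Hist1h2ai had 28.7 counts in replicate 1 and 49.0 in replicate 2 of the gene table, against 136 and 122 in the second. Hist1h3b, an H3 gene, had 55.0 and 30.3 counts against 244 and 175, and Hist1h4n had 141 and 0 counts against 7 and 0. Of the 12, 6 were among the 16 members with under 50% of windows of their own. The other 6 were among the 31 members with at least 50%, so low shares did not mark all of the 12. Hist1h4f is one, with 82.1% of windows of its own and 65.4 ± 13.4 TPM in the gene table, against 26.2 ± 5.95 TPM in the second. The tables also used different effective lengths. In the median long transcript it was the length less 100 bases in the gene table and less 248 bases in the second. Its part in the differences between the tables was not tested.

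Between the 2 animals, single members differed in both directions, and the classes did not shift alike. Ratios are log2 of replicate 1 over replicate 2 with 95% Clopper-Pearson intervals, which cover counting error only, and with 1 group there is no test. Summed over all members, the log2 ratio was 0.14 (interval 0.10 to 0.17), where the median of all genes tested was 0.02. Scaling to the ERCC spike-ins, synthetic RNAs added to each sample, moved the median gene to 0.26 and the members to 0.38. At least a 2-fold difference with a mean count of at least 50 was met by 1 of 41 members, against 1.10% of 14432 genes. That member was Hist1h4n, listed with 141 counts in replicate 1 and 0 in replicate 2. No fold is given for it, since its posterior means were 170 and 24.5 counts and its read assignment was uncertain. Hist1h4n and Hist1h4m together had 930 counts in replicate 1 and 501 in replicate 2, a log2 ratio of 0.63 (interval 0.48 to 0.79). The second table did not call Hist1h4n and called Hist1h2ah instead.

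The interval lay above 1-fold, higher in replicate 1, in 18 of 41 members (43.9%), against 25.6% of genes. It lay below in 6 members (14.6%), against 18.7% of genes. By class, H4 was higher in replicate 1, with a log2 ratio of 0.32 (0.27 to 0.38) on summed counts. Of 13 H4 genes, 12 had a positive ratio, where 54.1% of all genes and 27 of 41 members did, and 10 had an interval above 1-fold. Hist1h4m and Hist1h4n, both among the 10, share reads. Hist1h4j was the exception to the sign, with a ratio of -0.05 (-0.51 to 0.41). H2A had a ratio of 0.18 (0.10 to 0.27), with 4 of 7 tested genes higher in replicate 1, but this rested on Hist3h2a. Without it the H2A genes had 1482 counts in replicate 1 and 1293 in replicate 2, a ratio of -0.06 (-0.17 to 0.05). H1 was lower in replicate 1 on summed counts, with a log2 ratio of -0.33 (-0.43 to -0.24). Of its 4 tested genes, 1 was higher in replicate 1 and 2 had an interval below 1-fold. Hist1h1c was at -0.49 and Hist1h1e at -0.34. With spike-in scaling the H1 ratio was -0.09 and its interval held 0. H2B at 0.07 (-0.01 to 0.15) and H3 at 0.00 (-0.12 to 0.12) did not differ beyond counting error with TMM, total-count or DESeq2 scaling, and H3 changed sign with total counts. With spike-in scaling, which moved the median gene by a like amount, they were 0.31 and 0.24. H2B without Hist3h2ba, the member of highest mean count in that class, had a ratio of 0.23 (0.14 to 0.32). Among single genes, Hist3h2a had a ratio of 0.51 (0.39 to 0.64) and its neighbour Hist3h2ba one of -0.64 (-0.84 to -0.44).

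**Figure D4:**
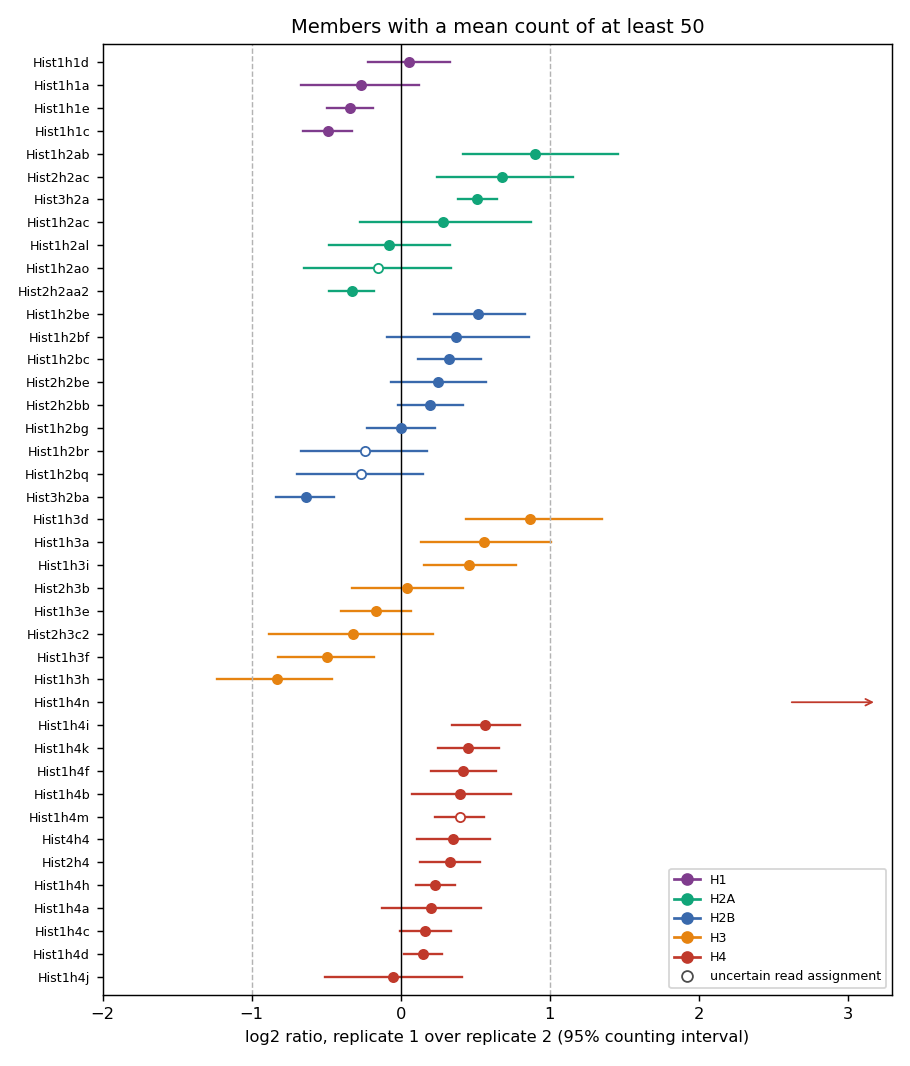
Log2 ratio of replicate 1 over replicate 2 with its 95% counting interval (horizontal axis) for the 41 members with a mean count of at least 50, one row per gene, coloured by class. Open points mark uncertain read assignment, dashed lines a 2-fold difference, and the arrow stands for Hist1h4n, whose count in replicate 2 was 0. Of the 13 H4 genes, 12 lie right of 0, and H1, H2A, H2B and H3 genes fall on both sides.

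The 2 libraries also differed in markers of the choroid plexus, the tissue that secretes cerebrospinal fluid beside the hippocampus. Its 4 markers summed to 23.7 TPM in replicate 1 and 626 TPM in replicate 2, almost all from Ttr at 21.8 and 615 TPM. All 4 were lower in replicate 1, and 3 were at least 2-fold lower with a mean count of at least 50. The 4 markers of newborn neurons summed to 25.5 TPM in replicate 1 and 20.8 TPM in replicate 2. Among them Sox11 was at least 2-fold apart, at 7.59 and 3.44 TPM. The 4 did not move together. Neurod1 was also higher in replicate 1, with a log2 ratio of 0.23. Dcx, at 5.82 and 6.93 TPM, and Eomes, at 0.06 and 0.16 TPM, were lower in replicate 1. The part of the choroid plexus and newborn neuron markers in the differences between libraries was not tested. In a bulk sample, fewer cells of a type and less RNA per cell cannot be told apart. Markers of excitatory and inhibitory neurons, astrocytes, oligodendrocytes, microglia and endothelium were all detected, and their summed levels differed by less than 1.2-fold between libraries. Some single markers differed more. Wfs1, at 85.5 and 127 TPM, and Mog, at 17.2 and 26.3 TPM, were lower in replicate 1. Cldn5, at 20.2 and 16.2 TPM, was higher there.

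Genes around the histone clusters were described from lists by role. Of 24 genes of S phase, 17 were detected, with a sum of 85.3 TPM in replicate 1 and 92.9 TPM in replicate 2, led by Pcna, the sliding clamp of DNA polymerase, at 24.4 and 25.8 TPM. Mcm6, of the replicative helicase, followed at 5.93 and 7.57 TPM, and Cdc6, which loads that helicase, was lowest at 0.22 and 0.24 TPM. Of 18 genes of mitosis, 2 were detected, Bub1b at 1.11 and 1.32 TPM and Tpx2 at 1.12 and 1.01 TPM, and the whole list summed to 7.73 TPM in replicate 1 and 9.98 TPM in replicate 2. Bub1, a kinase of the spindle checkpoint, was lowest, at 0 and 0.05 TPM, and the proliferation marker Mki67 had 0.21 and 0.32 TPM. The histone cluster genes, for comparison, summed to 1327 TPM in replicate 1 and 1174 TPM in replicate 2.

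Histone mRNA 3′ end processing and decay was represented by 18 matched genes, of which 16 were detected. Srrt, which links the cap-binding complex to RNA processing, had 122 TPM in replicate 1 and 119 TPM in replicate 2, and Sympk, a scaffold of the cleavage complex, 54.8 and 48.9 TPM. Slbp, which binds the stem-loop printed above, had 11.85 TPM in replicate 1 and 10.04 TPM in replicate 2, and Npat, an activator of histone gene transcription, had 9.40 and 11.7 TPM. Rnu7, the gene of the small nuclear RNA that pairs with histone pre-mRNA, was listed at 0 in both, but spans 62 bases, less than the 101-base window, so the 0 says nothing of its level. Of 19 histone chaperones, 17 were detected, led by Nap1l5 at 142 and 136 TPM and Npm1 at 89.2 and 91.2 TPM. Asf1b, a chaperone of H3 and H4, was lowest at 0.35 and 0.70 TPM. Of 14 replication-independent variants, 11 were detected, led by H3f3a with 148 TPM in replicate 1 and 131 TPM in replicate 2 and H3f3b at 125 and 141 TPM, and H1fnt and Hils1, both known from testis, were listed at 0. None of these 5 lists held a gene at least 2-fold apart between libraries with a mean count of at least 50, where 1.10% of all genes were.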

How the data were processed

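Expected counts were deposited without normalisation in a gene table and a first transcript table with the RSEM column layout, per the file headers. They were rounded here before any ratio. Estimated counts were deposited in a second transcript table with the kallisto layout, and were summed per gene here. TPM and FPKM were deposited by the authors after length normalisation. A further signal column of the RSEM tables, deposited beside the counts, holds the posterior SD of read assignment in units of counts. The build is mm10 with GENCODE M21, and the library kit is directional, per the labels' protocols and file notes. No aligner and no strand setting of counting was given in the sources used here, so overlapping antisense genes (19 members face an annotated miRNA entry) cannot be told apart.

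Annotated genes held 34147402 expected counts in replicate 1 and 28356913 in replicate 2. Ratios used TMM scaling (edgeR 4.0.16, R 4.3.3), a prior count of 2 and exact Clopper-Pearson 95% intervals. They were also run on simulated counts with counting error alone, which cannot show how they fare with shared reads or animal differences. Reads without molecular identifiers are not independent molecules, so intervals and the limit of 3 counts behind a 0 describe counting error alone, not read assignment. Table differences were taken on log2(TPM + 0.5). Members and lists were chosen with earlier results of these data known. Named members were the 10 highest, the highest of each class and cluster, those called 2-fold apart, those with uncertain assignment, those at 0 and the 5 whose tables differed most. From each list the 2 highest, the lowest and any called were named, and other genes were chosen after their values were seen. Without a genome sequence the stem-loop was searched in annotated transcripts, and proteins were translated from annotated coding sequence. The limit of 60 bases after it was set after seeing the annotation. No p-value was computed.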

Additional observations from a re-analysis of the deposited data

How the results depend on the processing

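The number of detected members, 57, was 35 at a TPM of at least 5, and ranged from 58 to 61 with either library alone. The other thresholds and the second table gave 53 to 59. The summed level was 2451 TPM when TPM was rescaled to nuclear protein-coding genes, 1068 TPM without the members of uncertain read assignment, and 1174 to 1327 TPM with either library alone. Uncertain assignment covered 20 members at 1 time the square root of the count, 5 at 3 times and 5 with a mean count of at least 50, against 9. Members at least 2-fold apart, 1 in the report, numbered 3 with spike-in scaling, 5 with a mean count of at least 10 and 6 at 1.5-fold. Spike-in scaling also moved the median gene to a log2 ratio of 0.26. No share over all genes is given at these changed settings. The counts of detected, uncertain and called members there therefore have no background beside them. The summed ratio kept its sign in all 6 alternatives, at 0.11 to 0.38. The H3 ratio of 0.00 became -0.0083 with total-count scaling, where its interval still held 0. Leaving out the member of highest mean count, chosen after seeing the data, gave a ratio of -0.0619 for H2A and 0.23 for H2B, and kept the sign and call of H1 at -0.33, H3 at 0.06 and H4 at 0.36. Detected genes of the 5 related lists, 63, numbered 62 to 70. Levels of the 24 named members were lower in the second table for 16 and higher for 8. Of all genes with a mean count of at least 50 in either table, 4949 of 15652 were higher in the second, a like share. No paired analysis was possible because the 2 libraries form 1 group. With 2 animals, differences between libraries rest on 1 library each.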
